A study of Mus musculus with 24 samples.

Results

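The centromere-proximal ends of the mouse autosomes were described through the CUT&RUN peaks that lay fully between positions 3,000,000 and 6,000,000 of chromosomes 1 to 19 on build mm10. No autosomal peak of any list started before 3 Mb. These 19 windows of 3 Mb start where the assembly gap at the centromeric end was taken to end. Together they made up 57 Mb, or 2.37% of the 2404 Mb of autosome from 3 Mb onwards. They held 37038 of 1594216 autosomal peaks (2.32%) of 16 deposited peak lists. The rule for the windows uses position and no measured value.

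All samples came from the line iMGT-Myh6-eGFP-MEF, mouse embryonic fibroblasts in which doxycycline switches on Mef2c, Gata4 and Tbx5 (MGT) and eGFP reports Myh6, and a single line stands for fibroblasts in general here. CUT&RUN releases DNA next to an antibody-bound protein with a tethered nuclease, and the antibodies were against MEF2C, the linker histone H1.0 (encoded by H1f0) and the histone mark H3K9me3. MEF2C was mapped at day 1 of MGT induction with 1 µg/mL doxycycline after transfection with siControl (n = 2), siJunb (n = 3) or siH1f0 (n = 3). H1.0 and H3K9me3 were each mapped at day 1 under siControl (n = 2) and in the ground state, for which the labels list neither siRNA nor induction (n = 2). MEF2C at day 1 is thus the induced protein together with any that fibroblasts make themselves, and the knockdowns act through transient siRNA whose effect on Junb or H1f0 was not measured here. The labels speak of biological replicates without saying whether cultures were separate, and the p-values then reflect only the variation among these lists, part of which may be technical.

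Mouse autosomes are telocentric: the centromere sits at the very start of the chromosome, and the unassembled satellite repeats there form pericentromeric heterochromatin. That heterochromatin carries H3K9me3, which the SUV39H enzymes write and HP1 proteins read, and linker histones such as H1.0 help to compact it. MEF2C is a MADS-box transcription factor of muscle and heart that binds AT-rich sites, and JUNB is a member of the AP-1 family, which is active at enhancers of fibroblasts. The windows lie outside the satellites, in the gene-bearing sequence that follows them.

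The windows were rich in genes. RefSeq placed 1293 genes fully inside them, 604 of them protein-coding, which is 10.6 protein-coding genes per Mb against 8.597 per Mb over the autosomes. The genes were spread unevenly, from 3 protein-coding genes on chromosome 3 to 118 on chromosome 19. Peaks began at or within 10 kb of position 3,000,000 on 12 chromosomes. On chromosomes 2, 4, 6, 9 and 15 the nearest peak of any list began 39.1 to 53.4 kb further in, and on chromosomes 10 and 11 it began 100 and 106 kb further in. The first covered base was 3050001 on chromosome 4 and 3050002 on chromosome 15. The genome sequence was not read here, so whether the gap runs past 3 Mb on some chromosomes was not tested. Any such unassembled bases stayed in the window length.

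To show what the bound sequence looked like, promoters of the windows were read from RefSeq (build GRCm38.p6, the assembly of mm10). Each runs from 250 bases before to 50 bases after an annotated transcript start, and a gene can have more than 1. Of 873 such promoters in the windows, from 690 genes, 25 promoters of 23 genes lay in MEF2C peaks of all 8 lists. That is 2.86% against 2.80% of 31396 autosomal promoters. The 4 shown are those of the 25 that held a MEF2 consensus site or the AP-1 pattern TGANTCA on either strand. Matches are in capitals. N is any base, and the AP-1 match reads TGAATCA in Ghr and TGAGTCA in Ubald1. Malat1 (chr19:5802623-5802922, minus strand) makes a long nuclear RNA, Mcoln1 (chr8:3500269-3500568, plus strand) a lysosomal cation channel, and Ghr (chr15:3581793-3582092, minus strand) the growth hormone receptor. The Ghr promoter lies inside the annotated gene, which runs from 3317755 to 3583352. Ubald1 lies at chr16:4879802-4880101 on the minus strand.
Malat1 promoter, MEF2 consensus in capitals: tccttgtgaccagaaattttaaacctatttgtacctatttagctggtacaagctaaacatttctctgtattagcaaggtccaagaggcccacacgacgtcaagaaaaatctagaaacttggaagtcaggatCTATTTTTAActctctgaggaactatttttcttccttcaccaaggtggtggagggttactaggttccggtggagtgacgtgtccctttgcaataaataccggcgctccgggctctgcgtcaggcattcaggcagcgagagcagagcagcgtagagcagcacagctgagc
Mcoln1 promoter, MEF2 consensus in capitals: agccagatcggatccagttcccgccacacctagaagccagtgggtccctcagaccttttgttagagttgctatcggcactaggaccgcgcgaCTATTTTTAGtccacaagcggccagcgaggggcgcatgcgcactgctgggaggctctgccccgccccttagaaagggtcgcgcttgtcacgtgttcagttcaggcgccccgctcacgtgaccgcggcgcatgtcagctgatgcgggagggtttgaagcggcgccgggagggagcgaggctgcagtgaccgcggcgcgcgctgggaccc
Ghr promoter, MEF2 consensus and then AP-1 in capitals: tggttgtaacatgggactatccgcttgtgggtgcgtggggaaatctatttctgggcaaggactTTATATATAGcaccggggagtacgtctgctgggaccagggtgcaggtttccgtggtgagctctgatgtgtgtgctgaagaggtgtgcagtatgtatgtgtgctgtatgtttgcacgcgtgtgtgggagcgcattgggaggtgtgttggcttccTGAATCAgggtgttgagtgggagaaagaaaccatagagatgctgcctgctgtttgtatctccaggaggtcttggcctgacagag
Ubald1 promoter, AP-1 in capitals: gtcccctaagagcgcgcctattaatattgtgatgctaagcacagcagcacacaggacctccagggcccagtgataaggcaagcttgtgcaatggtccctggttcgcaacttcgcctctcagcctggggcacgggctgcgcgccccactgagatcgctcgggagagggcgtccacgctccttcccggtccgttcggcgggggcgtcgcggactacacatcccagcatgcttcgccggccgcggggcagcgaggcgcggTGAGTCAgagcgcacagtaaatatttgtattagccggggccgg

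The MEF2 consensus was thus present in 3 of the 25 promoters (12%), and in 5.92% of the 879 autosomal promoters that lay in MEF2C peaks of all 8 lists. It was present in 3.10% of all autosomal promoters and in 1.60% of all window promoters. TGANTCA was present in 2 of the 25 (8%), in 7.85% of all autosomal promoters and in 5.84% of window promoters. A match describes the letters and is not shown to be a site of binding.

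H3K9me3 covered less of the windows than of the autosomes in each of its 4 lists. In ground-state replicate 1 it covered 1.92% of the windows and 2.64% of the autosomes, and in ground-state replicate 2 it covered 7.72% and 12.5%. At day 1 the covered shares were 2.63% of the windows and 4.37% of the autosomes in replicate 1, and 7.78% and 14.5% in replicate 2. The ratio of window share to autosome-wide share, called the relative share here, was therefore 0.727, 0.616, 0.602 and 0.538. Both shares of a ratio come from the same list.

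The mean relative share of H3K9me3 was 0.617-fold, or -0.70 ± 0.18 on the log2 scale (SD, n = 4), and it was -1.39 when all lists were cut to equal covered length. An exact sign-flip test over the lists, two-sided, gave p = 0.125, the smallest that 4 lists allow, and an adjusted p of 0.3125 over the 10 tests made on relative shares. The direction was the same in 4 of 4 lists and without any of the 19 chromosomes in turn, where the mean log2 value ran from -0.79 to -0.59.

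H1.0 and MEF2C covered the windows about as much as the rest. H1.0 lists differed widely in size: ground-state replicates covered 4.61% and 42.6% of the windows against 3.80% and 44.0% of the autosomes, and day 1 replicates covered 37.0% and 1.43% against 36.6% and 1.17%. The relative shares were 1.21, 0.968, 1.01 and 1.23, with a mean log2 value of 0.14 ± 0.18 (SD, n = 4, exact sign-flip p = 0.375, adjusted p = 0.5). Both short lists lay above 1 and both long lists lay at about 1, and at equal covered length the direction turned, with a mean of -0.044.

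MEF2C covered 0.751% and 2.82% of the windows under siControl, where its autosome-wide shares were 0.634% and 2.58%. Under siJunb it covered 0.638%, 3.03% and 2.28% of the windows, against 0.550%, 3.19% and 2.44% of the autosomes. Under siH1f0 it covered 2.45%, 3.80% and 0.976%, against 2.32%, 3.69% and 0.920%. The relative share was above 1 in 6 of 8 lists, and siJunb replicates 2 and 3 were the lists below it. The mean log2 value was 0.08 ± 0.12 (SD, n = 8, exact sign-flip p = 0.125, adjusted p = 0.3125), and it depended on the extent of the window: it was -0.09 with windows that ended at 4.5 Mb and -0.23 with windows that ended at 9 Mb. It was also below 0 without chromosome 5 (-0.0052) and without chromosome 19 (-0.021).

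**Figure D1:**
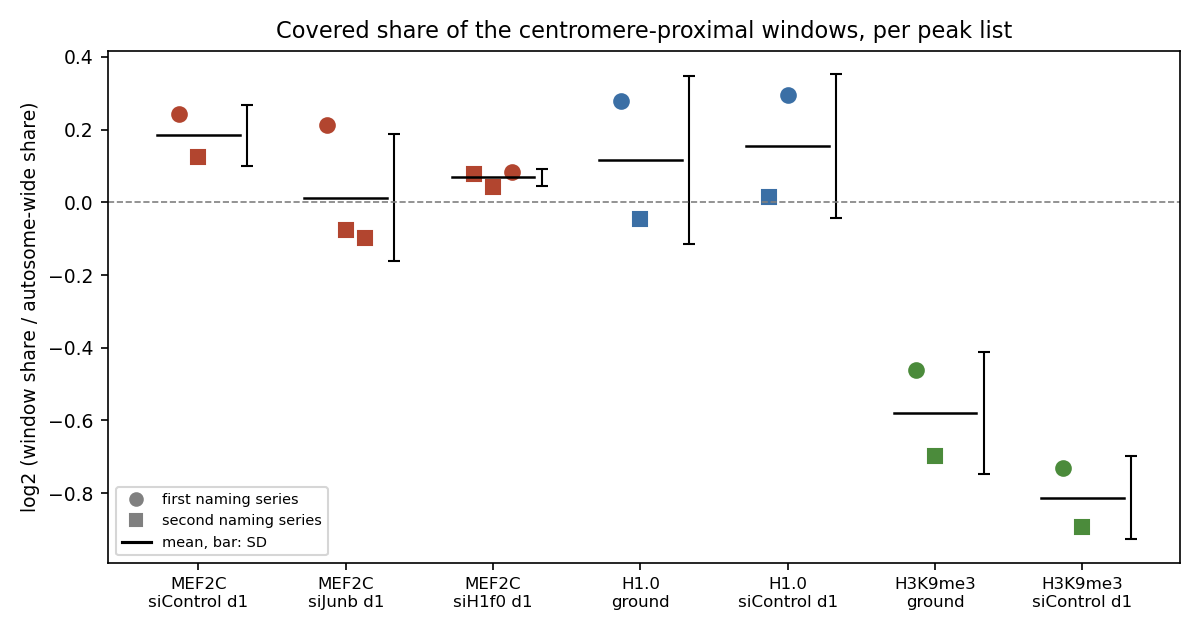
Each point is the log2 ratio of the covered share of the windows to the autosome-wide share of the same peak list, by antibody and group, with group means as lines and SDs as bars. The 4 H3K9me3 lists lie between -0.89 and -0.46 and the MEF2C and H1.0 lists between -0.10 and 0.29, and point shape marks the series of names that a list belongs to.

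The relative share of H3K9me3 was lower than that of MEF2C by -0.77 on the log2 scale (0.585-fold, 4 against 8 lists). This was the only comparison of the 10 that passed 0.05 (exact permutation p = 0.00404, the smallest possible, adjusted p = 0.0404), and all 4 H3K9me3 lists lay below all 8 MEF2C lists. The call was lost with windows to 9 Mb (-0.14, adjusted exact p = 0.3125) and when the median chromosome replaced the pooled share (-0.20, adjusted exact p = 0.533). It was also lost without any single list (adjusted exact p from 0.0606 to 0.121), where fewer lists raise the smallest p that can be reached. With the lists cut to equal covered length the difference was -1.47.

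The lists compared differ in state and knockdown as well as in antibody. In the day 1 siControl lists alone, the relative shares were 0.602 and 0.538 for H3K9me3, 1.18 and 1.09 for MEF2C and 1.01 and 1.23 for H1.0, again without overlap between H3K9me3 and the others. Against H1.0 over both states, H3K9me3 was lower by -0.83 (exact permutation p = 0.0286, adjusted p = 0.143), which did not pass.

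The names of the deposited lists fall into 2 series, and the lists of the first series covered less of the autosomes than those of the second for each antibody. The labels do not say what the series stand for. In the first series the log2 relative shares were 0.24, 0.21 and 0.08 for MEF2C, 0.28 and 0.29 for H1.0 and -0.46 and -0.73 for H3K9me3. In the second they were 0.12, -0.08, -0.10, 0.08 and 0.04 for MEF2C, -0.05 and 0.01 for H1.0 and -0.70 and -0.89 for H3K9me3. H3K9me3 was thus lowest within each series, and the part of the series or of list length in the other differences was not tested.

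Between states, the mean log2 relative share of H3K9me3 was -0.58 ± 0.17 in the ground state and -0.81 ± 0.12 at day 1 (SD, n = 2 each). The difference of -0.23 was in the same direction in both naming series, at -0.27 and -0.19, but 2 lists against 2 cannot give an exact p under 0.333 (adjusted p = 0.5). For H1.0 the means were 0.12 ± 0.23 and 0.15 ± 0.20 (SD, n = 2 each), and the difference of 0.04 was smaller than the spread between replicates (exact p = 0.667, adjusted p = 0.667).

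Between knockdowns, the mean log2 relative share of MEF2C was 0.18 ± 0.08 (SD, n = 2) under siControl, 0.01 ± 0.17 (SD, n = 3) under siJunb and 0.07 ± 0.02 (SD, n = 3) under siH1f0. The siJunb values overlapped the siControl values (difference -0.17, exact p = 0.4, adjusted p = 0.5). The siH1f0 values all lay below the siControl values (difference -0.12), which gives the smallest exact p of 0.2 that 3 against 2 lists allow (adjusted p = 0.4). The siJunb and siH1f0 means differed by -0.06 (exact p = 0.6, adjusted p = 0.667), with the opposite sign in the first naming series (0.13). None of these 3 differences passed, and both knockdowns were compared with the same siControl lists.

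The windows of the 19 chromosomes were far from alike. For each chromosome, the covered share of its window was divided by the covered share of that whole chromosome in the same list. For MEF2C, this ratio was above 1 in all 8 lists on 7 chromosomes (5, 12, 13, 16, 17, 18 and 19) and below 1 in all 8 lists on 11 (1, 2, 3, 4, 6, 7, 8, 9, 10, 14 and 15). Chromosome 11 was mixed. The median chromosome of a list gave a mean log2 value of -0.44 for MEF2C, so the pooled value near 0 was made of a minority of windows with high MEF2C and a majority with low.

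The MEF2C ratio was highest on chromosome 19, with a median of 2.79 and a range of 2.28 to 3.56 over the 8 lists. Chromosome 18 followed with a median of 2.27 (1.93 to 2.84) and chromosome 13 with 2.04 (1.79 to 2.65). At the other end, the window of chromosome 14 held no MEF2C peak in 5 of 8 lists although it has 45 protein-coding genes. Of those, 42 are predicted genes with Gm or LOC symbols. The window of chromosome 3 held no peak in 3 lists (median ratio 0.055), and chromosome 1 had a median of 0.226 (0.151 to 0.442). Gene number alone did not order the windows: chromosome 7, with 85 protein-coding genes, had a median MEF2C ratio of 0.581, and chromosome 18, with 12, had 2.27.

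H1.0 was above its chromosome's share in all 4 lists on chromosomes 10, 13, 16 and 18 and below it in all 4 on chromosomes 4, 7 and 9. Its median ratio was highest on chromosome 16 (2.48, range 1.05 to 3.96), chromosome 11 (1.79) and chromosome 18 (1.61), and lowest on chromosome 3 (0.459), chromosome 6 (0.598) and chromosome 9 (0.614). Across the 19 chromosomes, the median ratios of MEF2C and H1.0 had a Spearman correlation of 0.742. The chromosomes of a list share its library and the windows share their gene content, so this is a description of these lists and carries no p.

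H3K9me3 was above its chromosome's share in all 4 lists on chromosome 16 only (median ratio 1.29, range 1.22 to 1.44). It was below in all 4 lists on 9 chromosomes (1, 2, 5, 9, 10, 12, 14, 15 and 17). Chromosome 17 had the lowest ratio, at a median of 0.132: H3K9me3 covered 0.506%, 2.17%, 0.818% and 1.89% of its window, and 3.07%, 18.2%, 5.67% and 21.5% of the whole chromosome. Chromosome 10 followed with a median of 0.245 and chromosome 5 with 0.289. After chromosome 16, the highest medians were 1.08 on chromosome 18 and 1.02 on chromosome 13, where lists lay on both sides of 1.

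Low H3K9me3 did not go with a fixed level of MEF2C. Chromosomes 5 and 17 had low H3K9me3 and high MEF2C, chromosomes 1 and 2 were low in both, and chromosome 16 was high in both. The Spearman correlation across the 19 chromosomes was 0.102 between H3K9me3 and MEF2C and 0.161 between H3K9me3 and H1.0. With the gene density of the window relative to its chromosome, it was 0.235 for MEF2C, 0.412 for H1.0 and 0.232 for H3K9me3, on the same 19 points.

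**Figure D2:**
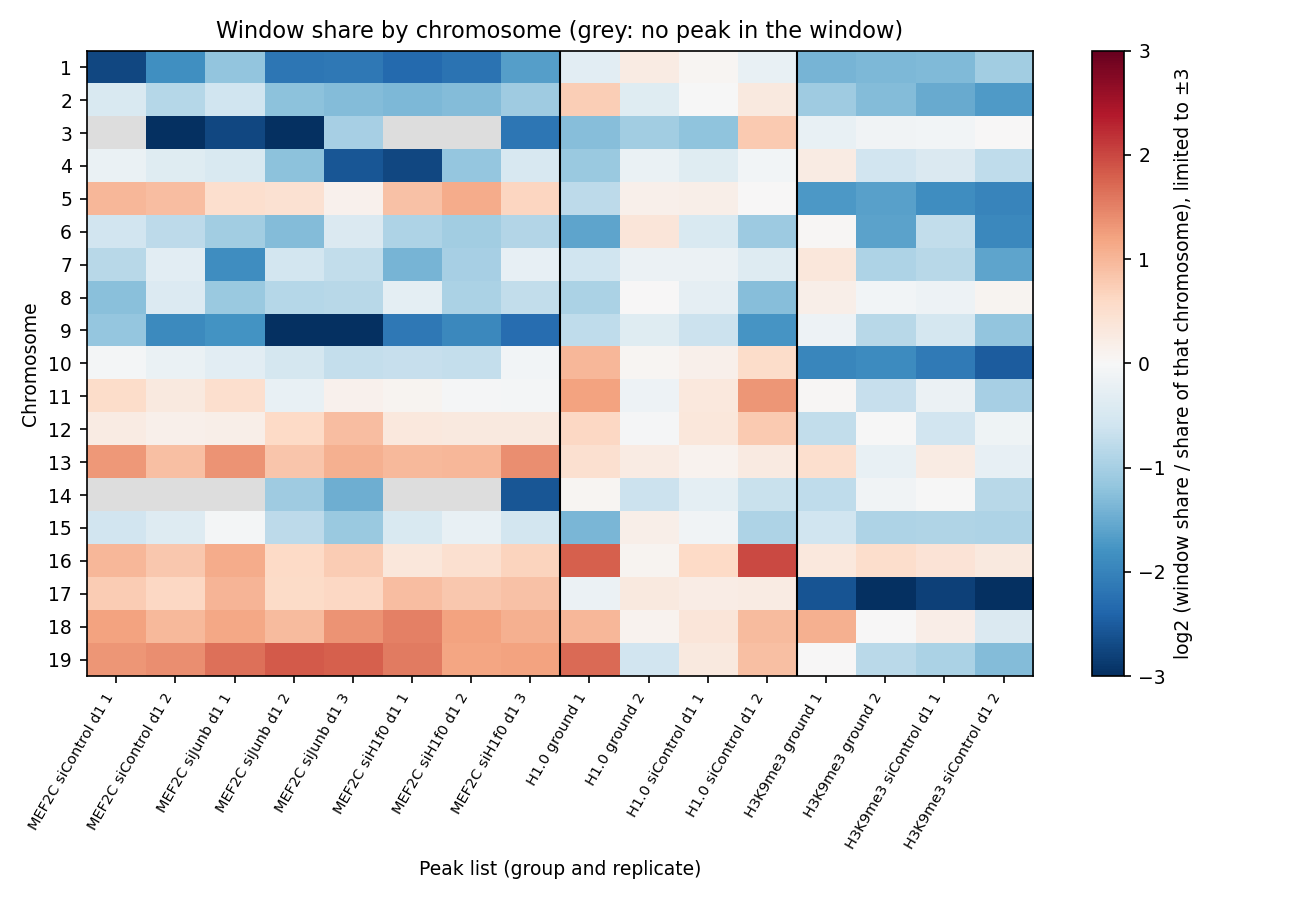
Each cell is the log2 ratio of the covered share of a chromosome's window (rows) to the share of the whole chromosome in the same peak list (columns), and grey marks windows without a peak. MEF2C is red in all 8 lists on chromosomes 5, 12, 13, 16, 17, 18 and 19, and H3K9me3 is blue in all 4 lists on 9 chromosomes, most deeply on chromosome 17.

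Distance from the assembly gap was then followed in 3 Mb bins pooled over the 19 chromosomes, of which the windows are the first, with peaks cut at the bin borders. For H3K9me3, the windows had the lowest relative share of 19 bins in ground-state replicate 2 and day 1 replicate 2, and the second lowest in day 1 replicate 1. In ground-state replicate 1 they ranked 11 from the lowest. The next bin, from 6 to 9 Mb, already had relative shares of 0.889, 1.01, 0.834 and 0.964. The last 3 Mb of the chromosomes, at the other end, had H3K9me3 above the autosome-wide share in all 4 lists, at 2.08, 1.27, 1.68 and 1.18. Both ends are rich in genes, with 1.23 times the autosome-wide density of protein-coding genes in the windows and 1.46 times in the last 3 Mb. Low H3K9me3 was not limited to the windows: the bins from 30 to 33 Mb and from 33 to 36 Mb, with gene densities of 1.14 and 1.19 times the autosome-wide value, had relative shares between 0.631 and 0.767 in the 4 lists. The bin from 21 to 24 Mb, at 1.21 times the gene density, had 0.962 to 1.06.

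MEF2C followed another course along the same bins. Its relative share was 0.934 to 1.18 in the windows, 0.508 to 0.775 in the next bin and 0.468 to 0.616 in the bin after that, in all 8 lists. Gene density was lower there too, at 0.773 and 0.592 of the autosome-wide value. For H1.0, counted from the lowest of the 19 bins, the windows ranked 19 and 7 in the ground state and 15 and 18 at day 1.

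**Figure D3:**
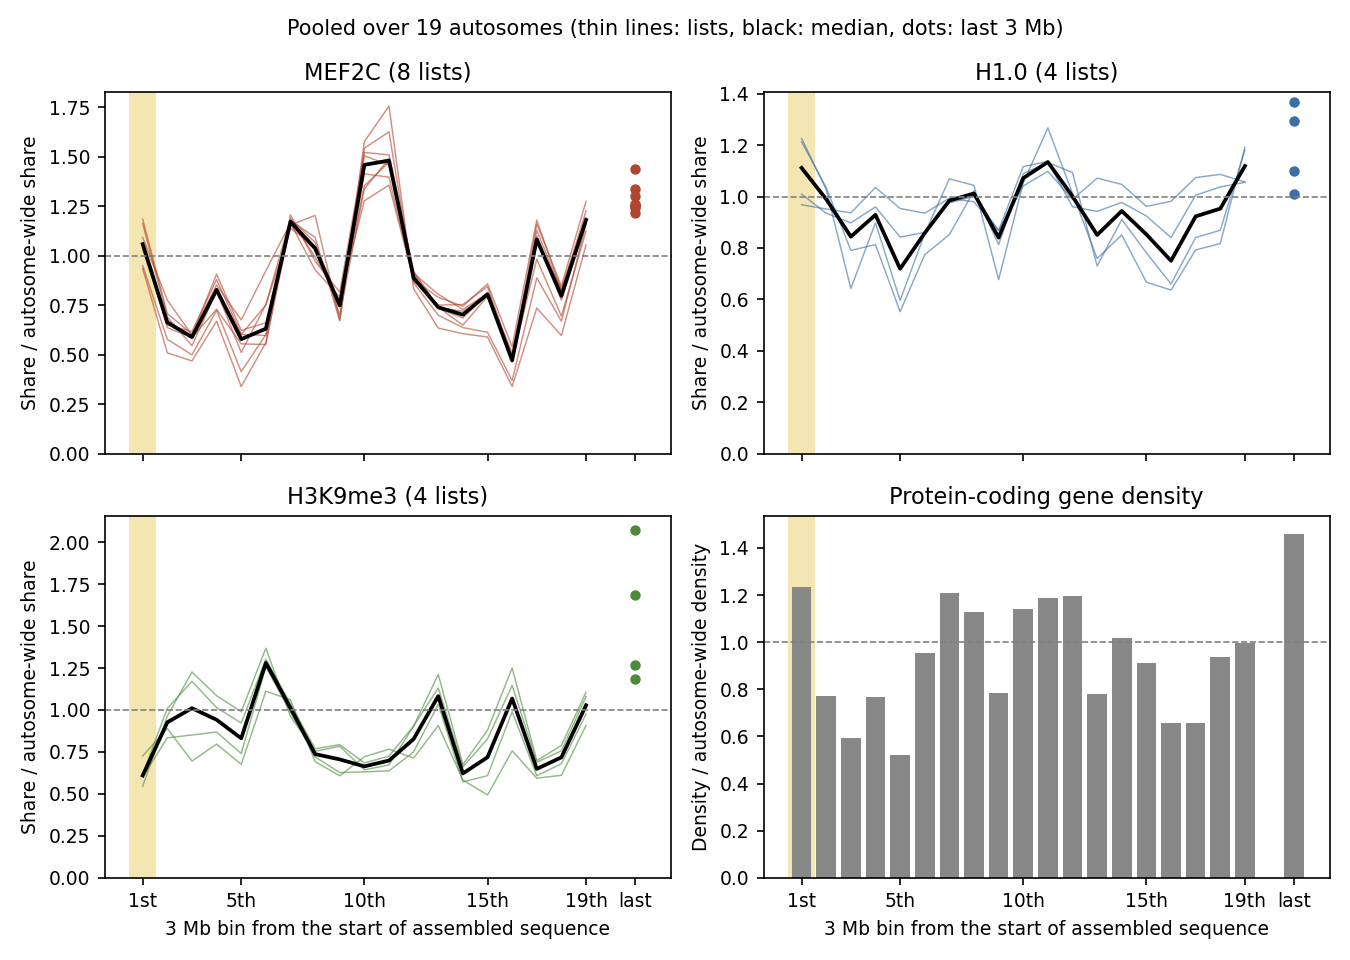
Coloured panels show the covered share of 3 Mb bins, pooled over 19 chromosomes and divided by the autosome-wide share, for each list (thin lines), their median (black) and the last 3 Mb (dots). The windows are shaded, and the grey bars give gene density on the same scale. H3K9me3 starts at 0.546 to 0.727, while its last 3 Mb lie at 1.18 to 2.08.

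Within the windows, H3K9me3 was lowest in the first 1.75 Mb. In steps of 250 kb, the median relative share over the 4 lists was between 0.386 and 0.595 in each of the 7 steps that make up this part. The step at the very start had the highest of these 7 medians, 0.595, and the step from 500 to 750 kb the lowest, 0.386. The median was between 0.609 and 0.709 in the next 3 steps, and 1.04 and 0.978 in the last 2. With windows cut at 4.5 Mb, the mean log2 relative share was accordingly -1.06, and with windows extended to 9 Mb it was -0.37. MEF2C had its highest step 2.0 to 2.25 Mb from the start of the window, where the median was 1.67 (1.44 to 1.83 over the 8 lists), and a further high step at the end of the window (1.43). In the first 250 kb of the windows, the MEF2C median was 0.642, with lists between 0.294 and 1.30.

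Lower H3K9me3 was found beside genes and away from them. Within 5 kb of protein-coding genes, which took up 45.9% of the windows and 46.7% of the autosomes, the relative share of H3K9me3 was 0.494 and 0.477 in the ground state and 0.412 and 0.384 at day 1. Elsewhere in the windows it was 0.839, 0.675, 0.686 and 0.610. It was below 1 in both kinds of sequence in 4 of 4 lists, and lower beside genes in each.

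Sequence under H3K9me3 in all 4 lists amounted to 764 kb in 373 intervals, or 1.34% of the windows against 1.70% of the autosomes. Sequence under H3K9me3 in both day 1 lists and in no ground-state list came to 45.5 kb (0.0798% of the windows against 0.323% of the autosomes). Sequence under it in both ground-state lists and in no day 1 list came to 18.6 kb, at 0.0327% against 0.0424%. The windows thus held 0.247 times the autosome-wide share of the day 1 set and 0.771 times that of the ground-state set. With 2 lists a state, these sets have no test. For H1.0, sequence shared by all 4 lists came to 88.5 kb in 158 intervals (0.155% of the windows against 0.134% of the autosomes), limited by the short lists. The longest of them, chr5:4052276-4054436, was 2.16 kb wide and lies in Akap9, a gene of a centrosomal scaffold protein. MEF2C covered between 1.12 and 2.16 kb of it in 7 of 8 lists and none in siControl replicate 1.

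The longest interval under H3K9me3 in all 4 lists was chr16:4803640-4813821, 10.2 kb wide and 13.3 kb from Cdip1. It was followed by chr13:5453529-5463101 (9.57 kb, 398 kb from the nearest protein-coding gene, Klf6) and chr8:4621914-4631320 (9.41 kb), which lies in Zfp958, a zinc finger gene. The next were chr8:3754400-3762623 (8.22 kb, 5.42 kb from the lectin gene Cd209a) and an interval of 7.88 kb on chromosome 18, 11.8 kb from Jcad. MEF2C peaks were absent from 4 of these 5 intervals in all 8 lists, and the interval near Cd209a held between 0 and 2.03 kb of MEF2C. A MEF2C list covered only 0.638% to 3.80% of the windows, so these 5 intervals cannot show whether MEF2C avoided H3K9me3.

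Among protein-coding genes, 66 of the 604 in the windows (10.9%) had H3K9me3 within 5 kb in all 4 lists, where the autosome-wide figure was 16.6%. No H3K9me3 in any list was found for 426 (70.5%, against 59.0%). Zfp958 was the only window gene with at least 50% of its length under H3K9me3 in all 4 lists (0.166%, against 0.716%), at 54.9% and 74.5% of the gene in the ground state and 50.5% and 62.6% at day 1. No window promoter of 873 lay in H3K9me3 of all 4 lists, against 1.03% of autosomal promoters.

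Gene families with many copies gave small numbers. The 62 predicted genes with Gm or LOC symbols had H3K9me3 in all 4 lists at 6 (9.68%), where 24.8% of 1101 on the autosomes did. Of the 12 Zfp zinc finger genes of the windows, 3 had H3K9me3 in all 4 lists (25%), and of 407 on the autosomes 41.8% did. Among the 8 Akr1c aldo-keto reductase genes on chromosome 13, 3 did (37.5%, against 33.3% of the 9 on the autosomes), and among the 13 Vmn1r pheromone receptor genes 2 did (15.4%, against 10.4% of 231). Leaving out receptor and zinc finger genes with 50 kb on either side, an alternative added after the data were seen, gave a mean log2 relative share of -0.66 for H3K9me3, close to that of the whole windows.

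**Figure D4:**
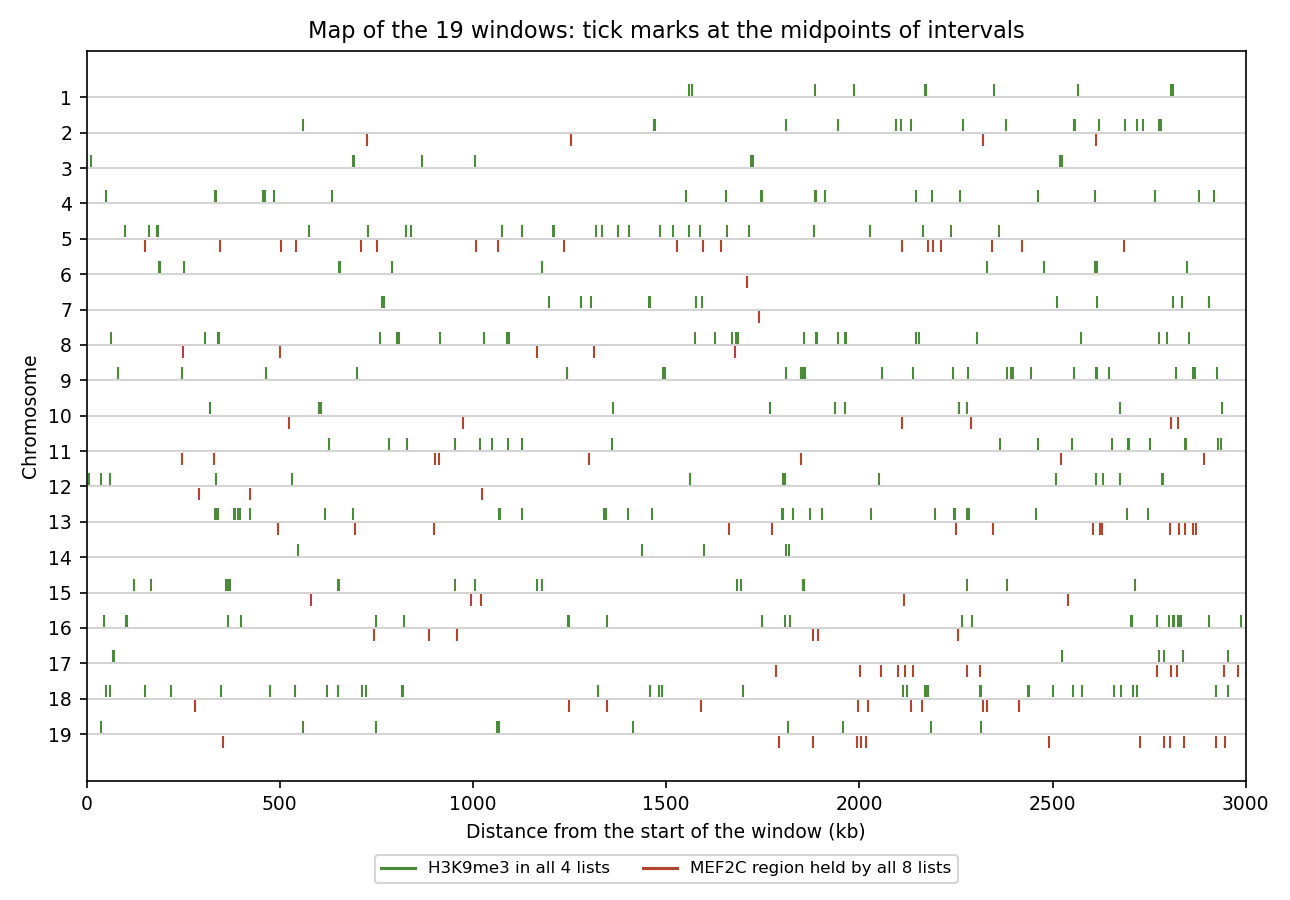
Each horizontal line is the window of a chromosome, from its start at 3 Mb (0 kb) to its end (3000 kb). Green ticks above the line mark intervals under H3K9me3 in all 4 lists and red ticks below it mark the 110 MEF2C regions held by all 8 lists, of which chromosome 5 has 19 and chromosomes 1, 3, 4, 9 and 14 have 0.

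To follow MEF2C site by site, the peaks of the 8 lists were merged into regions, and a list held a region when a peak of it overlapped it. The windows had 1892 of 75978 autosomal regions. Regions in a single list were 1068 of these (56.4%, against 56.5% of the autosomes), and 110 were held by all 8 lists (5.81%, against 5.62%). Most of the 110 lay on few chromosomes, with 19 on chromosome 5, 15 on chromosome 13, 13 each on chromosomes 17 and 19 and 11 on chromosome 18.

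The strongest region held by all 8 lists, by mean rank of summed signal within each list, was chr17:5307530-5315595 in Arid1b, which encodes a subunit of the BAF chromatin remodelling complex. Maximum signals there, which are the authors' coverage values and are not scaled between lists, were 76 and 285 under siControl, 48, 56 and 43 under siJunb and 111, 192 and 60 under siH1f0. The second was chr19:4990711-4995360 at Npas4, an activity-dependent transcription factor gene, and the third chr10:5286131-5292984 in Syne1, which encodes the nuclear envelope protein nesprin-1. The 4th was chr5:3499440-3506046 in the cell cycle kinase gene Cdk6. The 5th, chr19:5790237-5819210, spans 29.0 kb and covers all of Malat1. Peaks at Npas4, at Svil and at Net1 recurred among the 3 highest window peaks of the MEF2C lists, Npas4 in 7 of 8.

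A window region was called lost under a knockdown when both siControl lists and no list of the knockdown held it. Of 285 window regions held by both siControl lists (15.1% of window regions, against 13.9% of the autosomes), 42 were lost under siJunb (14.7%), beside an autosome-wide 13.8%. Under siH1f0, 8 were lost (2.81%), beside 1.75%. Of 1162 regions in no siControl list, 3 were gained under siJunb (0.258%, beside 0.400%), and 7 under siH1f0 (0.602%, beside 0.702%). Regions in all siH1f0 lists and no siJunb list, a comparison without siControl, were 19 of 268 (7.09%, beside 9.93%), and regions in all siJunb and no siH1f0 lists were 2 of 139 (1.44%, beside 1.75%). The windows thus lost and gained regions at shares near those of the autosomes.

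These counts moved with the lists used. Without siControl replicate 1 or replicate 2, 217 or 88 regions were lost under siJunb, and without siJunb replicate 2 there were 84. The 8 regions lost and 7 gained under siH1f0 became 100 without siControl replicate 1 and 68 without siControl replicate 2, and the 3 gained under siJunb became 47 without siJunb replicate 1. With all lists cut to equal covered length 5 regions were lost under siJunb and 0 under siH1f0. The 285 regions were held by single siJunb lists at 53.0%, 75.8% and 61.4%, where the same lists held 53.5%, 78.4% and 64.9% of the autosomal regions of that kind. Single siH1f0 lists held 89.5%, 95.4% and 73.3%, against 90.9%, 97.1% and 73.6%. All 6 knockdown lists held slightly fewer of the window regions than of the autosomal ones.

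The 3 strongest regions lost under siJunb were all far from genes and were all held by the 3 siH1f0 lists. At chr13:4830088-4832415, 221 kb from Akr1e1, the maximum signals were 23 and 47 under siControl and 33, 52 and 20 under siH1f0, with no peak in any siJunb list. At chr13:5591418-5594370, 267 kb from Klf6, they were 13 and 54 under siControl and 25, 28 and 10 under siH1f0. The third lay on chromosome 18, 148 kb from Bambi. Of the 42 regions lost under siJunb, 7 lay on chromosome 18, of 28 there that both siControl lists held, and 5 on chromosome 16, of 23.

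Regions lost under siH1f0 were weaker. The strongest, chr4:3050001-3053981, starts at the first base that any list covers on chromosome 4, had maximum signals of 5 and 13 under siControl, and was held by siJunb replicate 2 with 21. The next, chr11:3178410-3181747 and chr11:3135330-3140179, both lie in Sfi1, which encodes a centrosome protein. Gained regions were weak as well. Under siH1f0 the strongest were chr17:5258036-5261984 and chr17:5014243-5020361, both in Arid1b, with maximum signals of 14, 22 and 7, and of 15, 22 and 4. The first was also held by siJunb replicates 2 and 3 (7 and 11) and the second by siJunb replicate 2 (5). Under siJunb they were chr4:3163502-3165693, 6.39 kb from Vmn1r2, chr9:4445146-4446969 in Gria4 and chr10:5182704-5186896 in Syne1, with maximum signals between 4 and 30. The Gria4 region was also held by siH1f0 replicates 2 and 3 (12 and 4), and the Syne1 region by siH1f0 replicate 1 (7).

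Few MEF2C regions of the windows overlapped H3K9me3, where 1 bp of overlap was enough to count. Of the 285 held by both siControl lists, 8 (2.81%) and 19 (6.67%) overlapped the day 1 H3K9me3 lists. Those lists covered 2.63% and 7.78% of the windows. On the autosomes 5.63% and 8.51% of such regions overlapped, where the lists covered 4.37% and 14.5%. The part of the lower H3K9me3 of the windows in this difference was not tested. With the day 1 H1.0 lists, 269 (94.4%) and 44 (15.4%) overlapped, against 95.3% and 15.02%, and this share followed the length of the H1.0 list. No position of the windows lay under peaks of all 16 lists, which was not counted for the autosomes. The shortest list covered only 0.638% of the windows, so this is not a result about the windows.

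A short interval in Camk1d, a calcium/calmodulin-dependent kinase gene on chromosome 2, was shared by different antibodies with identical edges. The peak chr2:5379040-5379376 was called with exactly these edges in both ground-state H3K9me3 lists, in MEF2C siControl replicate 1 and in siJunb replicate 1. Day 1 H3K9me3 lists and MEF2C siH1f0 replicate 2 had peaks there with other edges. The remaining 5 MEF2C lists and all 4 H1.0 lists had none. It was the highest window peak of H3K9me3 ground-state replicate 1 (maximum signal 32) and of siJunb replicate 1 (55), and whether it is a place where reads pile up for any antibody was not tested, since the IgG control samples were not analysed here.

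MEF2C lay next to window genes somewhat less often than next to autosomal genes in each list. Within 5 kb, all 8 lists had a peak at 87 of 604 protein-coding genes (14.4%, beside an autosome-wide 16.9%), and no list had one at 177 (29.3%, beside 29.3%). In single lists the share ran from 24.7% to 53.8% in the windows and from 27.7% to 56.0% on the autosomes, and it was lower in the windows in 8 of 8 lists. For H3K9me3 the shares were 11.9% and 27.3% in the ground state and 18.7% and 22.2% at day 1, against 18.1%, 37.8%, 27.5% and 33.05% on the autosomes. H1.0 was next to 34.1% of window genes in all 4 lists, beside 36.1%.

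**Figure D5:**
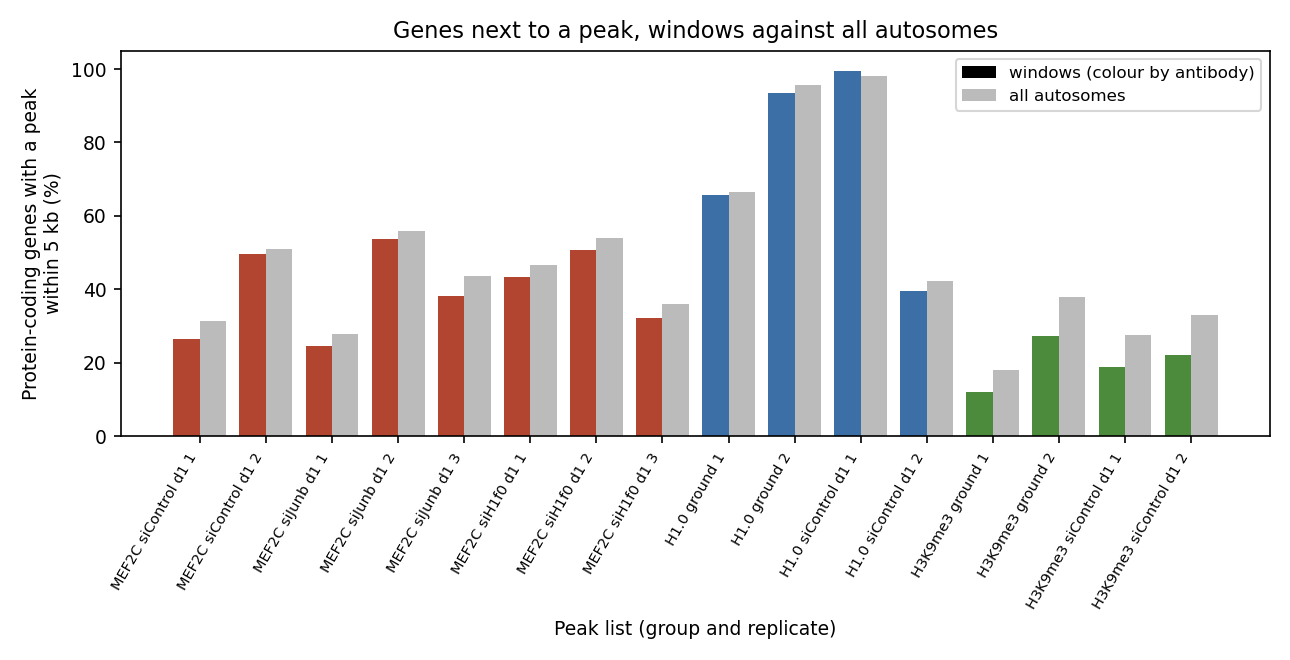
Bars give the percentage of protein-coding genes with a peak within 5 kb, in the windows (coloured, 604 genes) and on all autosomes (grey, 20665 genes), for each of the 16 peak lists. The coloured bar is lower than the grey bar in all 8 MEF2C and all 4 H3K9me3 lists, and the H3K9me3 gap is the wider in relation to its height.

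Window genes were grouped into lists by function, drawn up from the annotation with earlier results of these data known, so the counts describe the lists and do not test them. Over all protein-coding genes, MEF2C was found in all 8 lists at 14.4% in the windows and 16.9% on the autosomes, and H3K9me3 in all 4 lists at 10.9% and 16.6%. Of 7 AP-1, NF-kB and stress genes, 5 had MEF2C in all 8 lists, beside 14.4% of protein-coding window genes. Among these were Xbp1, a transcription factor of the unfolded protein response, Crem, a cAMP-responsive factor, and the kinase gene Map3k8. The others were the nuclear RNAs Malat1 and Neat1, which are not protein-coding and lie outside that 14.4%. MEF2C covered 15.8% and 92.4% of Malat1 under siControl, 9.88%, 90.7% and 76.5% under siJunb and 100%, 100% and 11.46% under siH1f0. Fosl1, which encodes the AP-1 protein FRA1, had MEF2C in 4 of 8 lists, and Rela, the p65 subunit of NF-kB, in 1. Map3k8 had H3K9me3 in 1 list and the others in none.

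Of 14 fibroblast, matrix and mesenchyme genes, 6 had MEF2C in all 8 lists, beside 14.4% of window genes and 16.9% of autosomal genes: Nf2, Kremen1, Znrf3, Klf6, Ghr and Zeb1, the last a repressor of epithelial genes. MEF2C covered 31.4% and 59.8% of Klf6 under siControl, 7.48%, 54.9% and 56.0% under siJunb and 75.1%, 86.3% and 11.3% under siH1f0. Col1a2, which encodes a chain of type I collagen, had MEF2C in 7 of 8 lists. H3K9me3 was found in all 4 lists at 5 of the 14 (Akap12, Znrf3, Ghr, Zeb1 and Lrp5), beside 10.9% of window genes and 16.6% of autosomal genes. Lrp5, a Wnt co-receptor gene, was the only one of the 14 without MEF2C in any list. Zeb1 had both, with 6.67% and 20.6% of the gene under H3K9me3 in the ground state and 6.31% and 14.8% at day 1.

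Of 10 muscle and heart genes fully in the windows, 5 had MEF2C in all 8 lists, beside the same 14.4% and 16.9%: Syne1, Srl, Svil, Actn3 and the actin regulator Cfl1. Inside Actn3 itself, MEF2C covered 0% and 0.425% under siControl, 0%, 5.08% and 2.40% under siJunb and 0%, 0% and 0.773% under siH1f0. Promoters of the neighbouring gene Zdhhc24 lay in MEF2C peaks of all 8 lists. Tnni3, which encodes cardiac troponin I, had MEF2C in no list, and Tnnt1, the neighbouring gene of slow skeletal troponin T, in 4 of 8. Both lacked H3K9me3 in all 4 lists, and Syne1 and Svil had it in all 4. Tbx10, a T-box gene on chromosome 19, had MEF2C within 5 kb in 0 of 2 siControl lists, 3 of 3 siJunb lists and 3 of 3 siH1f0 lists, with no peak inside the gene itself. By the region call, 0 regions of the chromosome 19 window were gained under siJunb and 1 under siH1f0. The Tbx10 count is thus not a gained region under siJunb, and the share of all genes with this pattern was not counted. Camk2b crosses the border of its window and was left out. Myl7, the atrial myosin light chain gene, was not on the list and is named after its values were seen: it had MEF2C in all 8 lists.

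Of 16 chromatin and DNA methylation genes, 3 had MEF2C in all 8 lists, a share near the 14.4% of window genes and 16.9% of autosomal genes: Asxl2, the DNA methyltransferase gene Dnmt3a and Kmt5c, whose enzyme trimethylates H4K20. Suv39h2, whose enzyme writes H3K9me3, had MEF2C in 1 of 8 lists and H3K9me3 in none of 4. Zbtb2 alone of the 16 had H3K9me3 in all 4 lists. Of 18 neural, receptor and germline genes fully in the windows, 6 had MEF2C in all 8 lists (Esr1, Camk1d, Cdk6, Cdk14, Sgce and Insr), beside 14.4% and 16.9%. Sox17, Oprk1, Pomc and Penk, genes of endoderm and neuropeptide signalling, had it in none. H3K9me3 was found in all 4 lists at Esr1, Camk1d, Cdk14 and the glutamate receptor gene Gria4. Long genes have more room for a peak within their bounds, and gene length was not accounted for in these counts.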

How the data were processed

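CUT&RUN peak lists of 16 samples (8 MEF2C, 4 H1.0 and 4 H3K9me3) were used. The other 8 of the 24 labelled samples, IgG controls, were not analysed here. Per the submitters' processing notes, Bowtie2 and SEACR were used on mm10. Their versions, and whether IgG set the SEACR threshold, are not given in the sources used here. The deposited values are signal, the authors' read coverage as a total and a maximum for every peak, with 1 sample per list at SEACR's relaxed setting. Depth is stated in the labels alone, at 30 M reads for each sample, so precision was judged from the spread between lists.

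Covered bases of peaks fully inside the windows were divided by window length, and all autosomal covered bases by autosome length from 3 Mb to the last peak or RefSeq gene. The log2 ratio was tested over lists with exact sign-flip or exact permutation tests, two-sided, and 10 p-values were adjusted together by Benjamini-Hochberg (threshold 0.05). Touching or overlapping MEF2C peaks were merged into regions, held at 1 bp of overlap. Genes are from a RefSeq table of GRCm38.p6 and promoters from a RefSeq sequence table, which matched 478 of the 604 protein-coding window genes. The calculation of covered shares was tested on simulated peaks. Python 3.11.15, numpy 2.4.6, pandas 2.3.3 and scipy 1.17.1 were used.

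Regions to be named were the strongest or longest of each kind by a fixed rule, chromosomes the 3 highest and 3 lowest, and genes those on 5 lists. The windows, lists and rules were chosen with earlier results of these data known. Alternatives were the extent of the window, peaks cut at its borders, 100 kb left out, another denominator, the median chromosome, stronger peaks, equal covered length, peak number, each list left out, a replicate block and the naming series. Replicate numbers are shared between groups, but the labels do not say that they mark a shared batch, so they were not used as a block.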

Additional observations from a re-analysis of the deposited data

How the results depend on the processing

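H3K9me3 kept its direction, with values from -1.39 (equal covered length) to -0.37 (window to 9 Mb), and from -0.77 to -0.63 with a list left out. The mean log2 relative share of MEF2C changed sign with windows to 4.5 Mb (-0.093), to 9 Mb (-0.23) and with the median over chromosomes (-0.44), and, among chromosomes left out after the data were seen, without chromosome 5 (-0.0052) and 19 (-0.021). It passed without chromosome 2 (0.16, adjusted exact p = 0.0391). With a list left out it ran from 0.05 to 0.10. For H1.0, equal covered length gave -0.044 and lists left out gave 0.08 to 0.20. H3K9me3 against MEF2C no longer passed with windows to 9 Mb (-0.14) or the median chromosome (-0.20), nor with any list left out (-0.85 to -0.71), and it was -1.47 at equal covered length. H3K9me3 against H1.0 ran from -0.91 to -0.77 with a list left out. For siJunb against siH1f0 the first naming series gave 0.13, and lists left out gave -0.16 to 0.00057, with the sign changed without siJunb replicate 3. For H1.0, day 1 against ground ran from -0.13 to 0.20 with lists left out, and the sign changed without ground replicate 2 or day 1 replicate 2. Chromosomes above their own share in every list were 4 for MEF2C and 2 for H3K9me3 with windows to 9 Mb. The cause of these changes was not tested.

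Regions lost under siJunb numbered 15 when 50% of the region had to be covered, 18 with the stronger peaks of each list and 5 at equal covered length, and 51 to 217 with a list left out. Regions gained under siJunb were 0 at equal covered length and 3 to 47 with a list left out, the most when siJunb replicate 1 was left out. Leaving out siControl replicate 2 gave 20, siJunb replicate 3 gave 16 and siJunb replicate 2 gave 9. Regions lost under siH1f0 were 1, 4 and 0 under the same 3 settings and 10 to 100 with a list left out, namely 100 or 50 when siControl replicate 1 or 2 was left out and 20 when siH1f0 replicate 2 was. Regions gained under siH1f0 were 3, 4 and 0, and 8 to 68 with a list left out, where leaving out siControl replicate 2 gave 68, siH1f0 replicate 3 gave 39 and siH1f0 replicate 1 gave 19.

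With the replicate number as a block, siJunb against siControl gave -0.11, siH1f0 against siControl -0.12, siJunb against siH1f0 -0.06, H3K9me3 between states -0.23 and H1.0 between states 0.04, and no call changed. Same-numbered lists deviated together for H3K9me3 (correlation 0.634 over chromosomes) and for siJunb with siControl (0.37 and 0.34), and did not for siH1f0 with siControl (-0.02 and -0.42) or siJunb with siH1f0 (-0.32, 0.08 and -0.32). For H1.0 they deviated in opposite directions (-0.595), and the crossed pairing of its numbers, added after the data were seen, gave 0 calls, as the labelled pairing did. Same-numbered lists shared a naming series for H3K9me3 and for siJunb with siControl, and did not for H1.0. Replicate number, naming series and list length therefore cannot be told apart in these correlations. List size limits the counts of regions, since short lists hold fewer regions.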
